A study of Mus musculus with 2 samples.

Results

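B cell identity and subset genes were described in leukocytes of mice bearing 4T1 liver metastases, as 9 genes chosen by their symbols: Cr2, Fcer2a, Cd22, Cd1d1, Cd9, Siglecg, Ebf1, Pax5 and Bank1. Each was 1 of the 32285 gene rows of both single-cell RNA libraries. B cells were barcodes with at least 3 UMIs (unique molecular identifiers, each counting 1 captured transcript) of Cd79a, Cd79b and Ms4a1 combined, and the choice of cells used none of the 9 genes. They made up 1389 of the 8435 barcodes with a single hashtag call in the liver-labelled library and 147 of 2988 in the spleen-labelled library. Female BALB/cAnNCrl mice of 7 to 8 weeks received 4T1 breast carcinoma cells in a split spleen whose injected part was then removed, so every group kept only a spleen remnant. CBL0137, a compound that binds DNA and traps the histone chaperone FACT on chromatin, or vehicle was then given by hepatic arterial infusion, and cells were taken 5 days after treatment with 2 mice pooled per group. The groups were vehicle, low dose and high dose of CBL0137, and the amount that each of these dose labels stands for is not stated in the sources used. Each group was 1 pooled sample in each library and had no replicate, so no test was run and no p-value is given, and the intervals below cover counting error only, at 95%.

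Groups were mixed in 1 library per tissue and told apart by hashtags, antibodies to surface proteins that carry a DNA barcode. The 3 barcodes are shown because every comparison of groups rests on them, as listed in the deposited hashtag reference.
A0301 (vehicle): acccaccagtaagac
A0305 (low dose): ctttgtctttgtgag
A0310 (high dose): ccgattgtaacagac
The study's methods name A0301 and 310 for staining and list all 3 barcodes. The same methods describe CD11b+ bead-isolated cells, whereas the labels describe leukocytes, and both libraries held B and T cells. Transcripts went against the tissue labels. The liver-labelled library held 0 UMIs of the Kupffer cell receptor gene Clec4f and 0.0728 CPM (counts per 1000000 UMIs) of hepatocyte transcripts, while the spleen-labelled library held 124.5 and 62.6 CPM. The libraries are therefore named by their labels throughout, and the direction of any difference between them depends on those labels. They shared 15 cell barcodes. B cells carried the markers that the gate did not use: Tnfrsf13c, the BAFF receptor gene, measured 239.9 CPM in B cells and 2.34 in T cells of the liver-labelled library, and 162 and 0.251 in the spleen-labelled library. Median depth of B cells lay between 3566 and 3794 UMIs across the groups of the liver-labelled library and between 2621 and 4125 UMIs across those of the spleen-labelled library. Hashtag calls left out 104 B cell barcodes without a call in the spleen-labelled library, and A0310 dominated in all 104.

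B cells arise in bone marrow under the transcription factors Ebf1 and Pax5, which switch on the B cell program and keep it in place. Mature B cells of the spleen are mainly follicular cells, which recirculate and carry the low-affinity IgE receptor CD23 (Fcer2a), and marginal zone cells, which line the blood sinuses and carry high complement receptor CD21 (Cr2), CD1d (Cd1d1) and CD9. CD22 and Siglec-G (Siglecg) are sialic acid-binding inhibitory receptors of the B cell receptor, and Bank1 encodes a cytoplasmic adaptor of the same pathway. By Ensembl gene ID in GENCODE vM21 (GRCm38), Cr2 lies at chr1:195136811-195176716, Bank1 at chr3:136053363-136326066, Cd1d1 at chr3:86995834-86999441, Pax5 at chr4:44524757-44710487, Cd9 at chr6:125460266-125494791, Cd22 at chr7:30865402-30880342 and Fcer2a at chr8:3681737-3694175, all on the minus strand. Siglecg lies at chr7:43408204-43418358 and Ebf1 at chr11:44617317-45008091 on the plus strand. Cd22, Cd9, Ebf1, Pax5 and Bank1 overlap other annotated genes, and the counting was not stated to use strand, so reads of overlapping genes may be mixed with theirs.

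B cells carried most transcripts of 7 genes, but not those of Cd1d1 and Cd9. Fcer2a had 95.3% of its UMIs in B cells of the liver-labelled library, the highest share, and Siglecg had 86.2%, the lowest of the 7. Between these lay Pax5 with 93.03%, Cr2 with 91.3%, Cd22 with 91.2%, Bank1 with 89.8% and Ebf1 with 89.4%. Most of the remaining Ebf1 UMIs, 9.33% of the total, lay in barcodes that passed no marker gate, at 143 CPM against 1278 in B cells and 2.75 in T cells. Cd1d1 had 25.3% of its UMIs in B cells and 35.3% in T cells. Cd9, a tetraspanin, had 1.85% in B cells and 65.0% in barcodes with at least 5% of their UMIs from S100a8 and S100a9, which mark neutrophils. The spleen-labelled library gave at least 94.8% in B cells for Cr2, Fcer2a, Ebf1 and Pax5, but 71.6% for Siglecg, 63.1% for Cd22 and 60.5% for Bank1. There, Bank1 had 9.78% of its UMIs in barcodes of the macrophage gate and 24.2% in barcodes that passed several gates, and Cd22 had 6.95% and 20.3%.

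**Figure D1:**
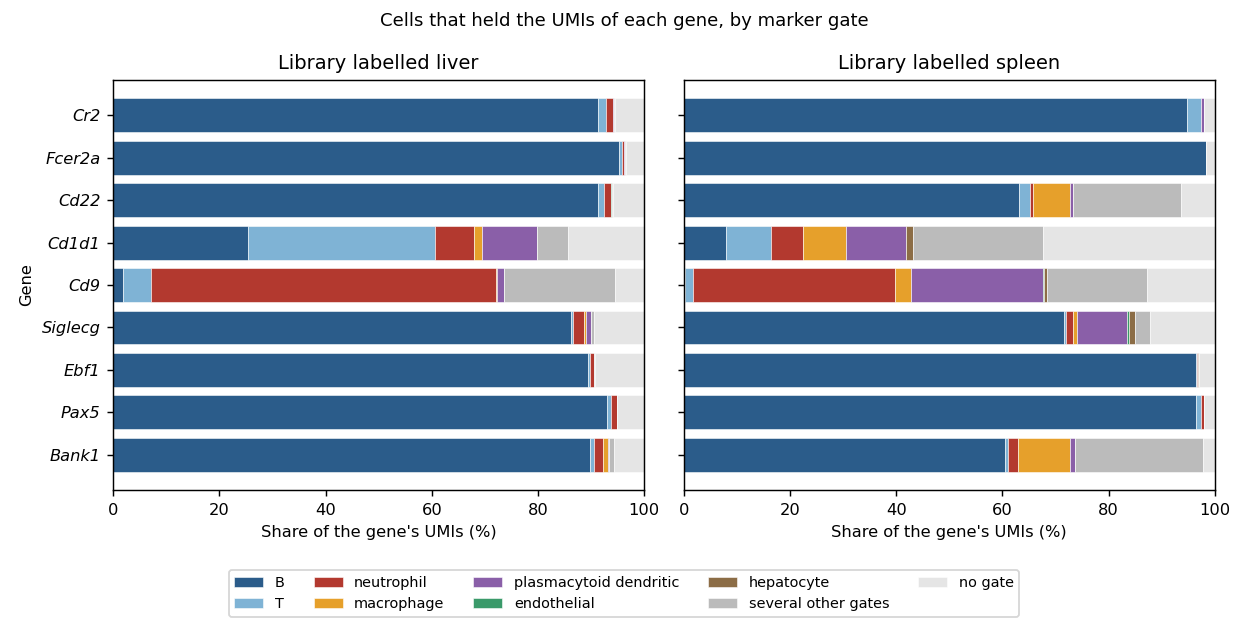
Share of each gene's UMIs (horizontal axis, percent) by the marker gate of the barcode that held them, for barcodes with 1 hashtag call in each library. B cells (dark blue) held 86.2% to 95.3% of the UMIs of 7 genes in the liver-labelled library, 25.3% for Cd1d1 and 1.85% for Cd9.

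To compare shares of cells at 1 depth, each cell was drawn down to 1000 UMIs and shallower cells were left out, which kept 1336 B cells and 2818 T cells of the liver-labelled library and dropped 15 vehicle, 20 low-dose and 18 high-dose B cells. Ebf1 was found in 74.5% of these B cells (95% interval 72.0 to 76.8%), Bank1 in 42.0%, Siglecg in 30.8%, Cr2 in 24.2%, Pax5 in 22.8%, Cd22 in 19.3% and Fcer2a in 17.7%. T cells were barcodes with at least 3 UMIs of Cd3d, Cd3e and Cd3g combined and under 3 of the B cell gate. That rule leaves out barcodes with B cell transcripts and can lower the background they give. T cells, which should lack these transcripts, gave 0.0355% to 0.39% for the same 7 genes. Without thinning the shares of B cells ran from 44.6% for Fcer2a to 96.5% for Ebf1, and those of T cells from 0.318% to 1.80%. Cd1d1 was found in 2.02% of B cells (1.34 to 2.93%) and 1.38% of T cells (0.986 to 1.89%), but T cells carry Cd1d1 themselves and are no background for it. Cd1d1 measured 19.5 CPM in B cells (16.5 to 22.96) and 15.6 in the 2434 barcodes of the T cell gate alone (13.6 to 17.9). Barcodes of the neutrophil gate held 1.51 (1.08 to 2.03). Cd9 was found in 1.57% of B cells and 7.81% of T cells, and the neutrophil gate held 303 CPM of it against 32.0 in B cells. A B cell held a median of 2 of the 9 genes and a T cell a median of 0, and 43.8% of B cells against 0% of T cells held at least 3. That share was 42.9% in the vehicle group, 34.6% at the low dose and 55.6% at the high dose of the liver-labelled library, and 44.4%, 44.7% and 41.7% in the spleen-labelled library, where the high dose was not the highest.

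B cells themselves differed in frequency between the groups of each library. They were 16.7% of the vehicle barcodes, 14.6% at the low dose and 18.9% at the high dose in the liver-labelled library. The high dose lay 2.22 percentage points above vehicle (0.117 to 4.35), or 1.21 points (-0.829 to 3.29) with at least 5 UMIs required, and the low dose 2.17 points below (difference -2.17, -3.96 to -0.373). In the spleen-labelled library the shares were 4.50%, 2.92% and 8.32%, so that the high dose again lay above vehicle, by 3.82 points (1.49 to 6.19), while the interval of the low-dose difference, -1.58 points, reached 0.0362. The CD11b+ isolation named in the methods can set such shares, and fewer B cells cannot be told apart from more of the other cells in a pool.

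Levels were then compared as CPM, summed over the B cells of a group. A gene was called changed at a ratio of at least 2-fold with 20 or more UMIs in the compared groups combined. For the high dose against vehicle in the liver-labelled library, 5.25% of all genes tested were called and 0 of the 9 genes. For the low dose the figures were 4.71% and 0 of 9. The spleen-labelled library, with fewer B cells, gave 17.3% of all genes and 3 of the 7 genes with enough UMIs for the high dose, and 16.0% and 1 of 7 for the low dose. Cd1d1 and Cd9 did not reach 20 UMIs there. Among these dose comparisons, the share of the 9 genes called exceeded that of all genes only for the high dose in the spleen-labelled library. All dose comparisons of a library share its vehicle cells.

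**Figure D2:**
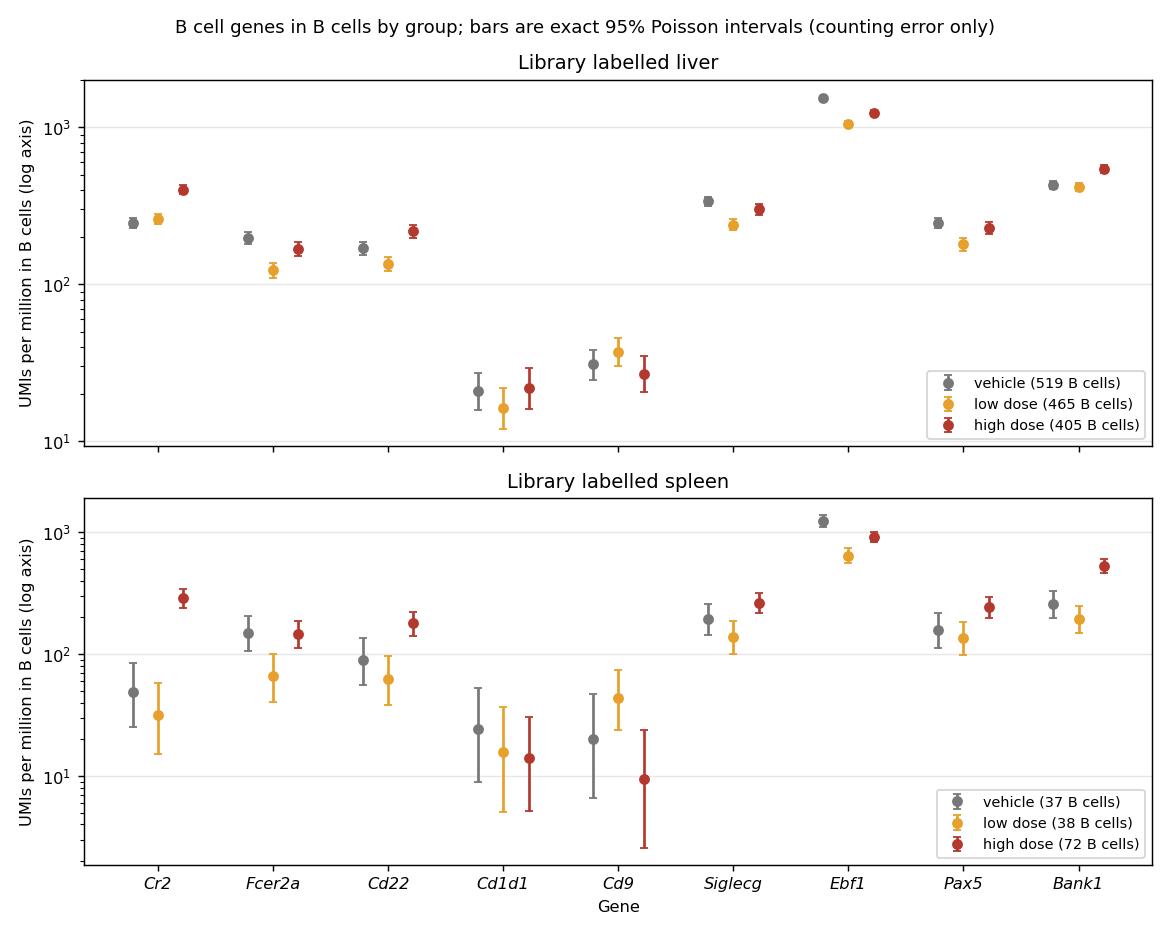
CPM of the 9 genes in B cells (vertical axis, log scale) by group, with exact 95% Poisson intervals, for the liver-labelled library (top) and the spleen-labelled library (bottom). Cr2 was highest at the high dose in both libraries, at 402 and 289, and Ebf1 was highest in vehicle in both, at 1530.1 and 1235.

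Cr2 encodes the receptor for complement fragments that lowers the threshold of B cell activation. Its level in the liver-labelled library was 247 CPM in vehicle, 261 at the low dose and 402 at the high dose. The interval of the high dose, 375 to 429, lay above those of the other groups, and the intervals of vehicle and low dose overlapped. The log2 ratio of high dose to vehicle was 0.70 (0.56 to 0.85), short of 2-fold, and 96.4% of genes tested had a lower ratio. Levels in the spleen-labelled library were 48.6, 31.4 and 289 CPM, from 12, 10 and 123 UMIs. Cr2 rose there at the high dose by 2.57 on the log2 scale (1.71 to 3.56), or 5.94-fold. A single vehicle barcode held 41.7% of the 12 vehicle UMIs, and without the barcode with most Cr2 UMIs in each group the ratio was 3.15. Sums of markers of other cell types also differed in the same B cells, and several rested on single barcodes. The 3 T cell genes summed to 36.5 CPM in vehicle and 298 at the high dose. The 4 endothelial genes gave 8.10 and 343, and the 2 neutrophil genes 2195 and 758. In vehicle 1 barcode held 100% of the T cell UMIs and 1 held 80.3% of the neutrophil UMIs. At the high dose the top barcode held 40.9% of the T cell UMIs and 84.2% of the endothelial UMIs. Among B cells that passed no other gate the T cell genes were at 0 in both groups and the endothelial genes at 12.6 and 10.6 CPM. The neutrophil genes still differed there, at 3207 CPM in vehicle, of which 1 barcode held 85.1%, and 934 at the high dose. The 3 macrophage genes went from 2118 and 1611 CPM in all B cells, where the top barcode held 60.4% and 92.3%, to 6.28 and 28.2 in those cells. The 3 plasmacytoid dendritic cell genes went from 255 and 65.7 to 31.4 and 24.7. Low-dose ratios of Cr2 were 0.08 (-0.07 to 0.24) and -0.63 (-2.0 to 0.71) in the liver-labelled and spleen-labelled libraries, and both intervals held 0. After thinning, Cr2 was found in 21.8%, 20.4% and 31.5% of vehicle, low-dose and high-dose B cells of the liver-labelled library, and in 8.33%, 10.5% and 27.8% of those of the spleen-labelled library.

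Fcer2a showed another order of the groups. Its levels in the liver-labelled library were 197 CPM in vehicle, 123 at the low dose and 168 at the high dose. Those of the spleen-labelled library were 149.9, 65.9 and 146. The low dose was thus the lowest group of both libraries. Its log2 ratio to vehicle was -0.68 (-0.88 to -0.48) in the liver-labelled library, short of the call, and Fcer2a fell by 1.18 on the log2 scale (interval -2.03 to -0.37) in the spleen-labelled library, on 21 and 37 UMIs. The high-dose ratios were -0.23 (-0.42 to -0.03) and -0.04 (-0.65 to 0.59), the second being 0.52 with the dominant hashtag as the group. The thinned shares were 20.8%, 14.2% and 17.6% in the liver-labelled library, where the interval of the low dose, 11.1 to 17.7%, just overlapped that of vehicle, 17.4 to 24.6%.

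**Figure D3:**
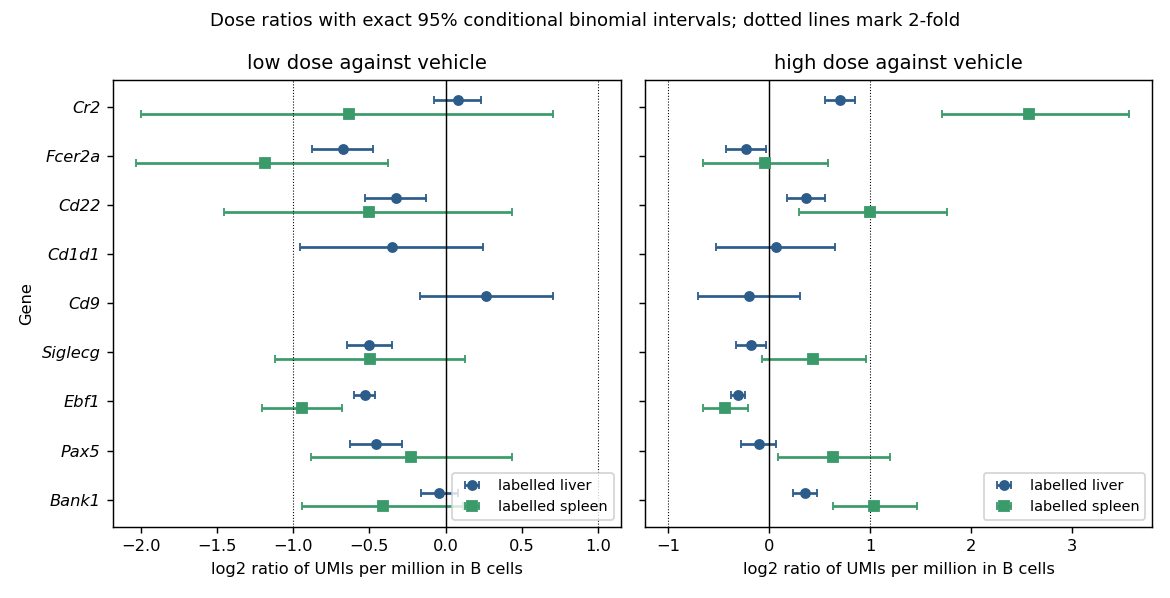
Log2 ratio of CPM in B cells (horizontal axis) for the low dose (left) and the high dose (right) against vehicle, with exact 95% intervals, for genes that reached 20 UMIs. In the right panel Cr2 lies farthest from 0, at 0.70 in the liver-labelled library (circles) and 2.57 in the spleen-labelled library (squares), and Ebf1 lies below 0 in all 4 comparisons.

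Among the inhibitory receptors, Cd22 measured 169 CPM in vehicle, 135 at the low dose and 218 at the high dose of the liver-labelled library, and 89.1, 62.8 and 178 in the spleen-labelled library. The high dose was the highest group of both libraries. Its ratio was 0.36 (0.17 to 0.55) in the first and 1.00 (0.30 to 1.76) in the second, where the value lay just at the call limit. Siglecg measured 339, 239.8 and 300.2 CPM, and 194, 138 and 263. The low dose was lowest in both libraries, with ratios of -0.50 (-0.65 to -0.35) and -0.49 (-1.12 to 0.13), while the high-dose ratios, -0.18 (-0.32 to -0.03) and 0.44 (-0.06 to 0.95), had opposite signs and the second interval held 0. Bank1, the adaptor, measured 428, 416 and 546 CPM in the liver-labelled library and 259, 195 and 533 in the spleen-labelled library. Its high-dose ratio was 0.35 (0.23 to 0.47) in the first, and in the second Bank1 rose by 1.04 on the log2 scale (0.63 to 1.46). Bank1 at the low dose gave -0.04 (-0.16 to 0.08) and -0.41 (-0.94 to 0.11).

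Of the transcription factor genes, Ebf1 measured 1530.1 CPM in vehicle, 1058 at the low dose and 1236 at the high dose of the liver-labelled library. It measured 1235, 643 and 916 in the spleen-labelled library. Vehicle was the highest group of both libraries and the low dose the lowest. The low-dose ratios were -0.53 (-0.60 to -0.46) and -0.94 (-1.20 to -0.68), and the high-dose ratios were -0.31 (-0.38 to -0.24) and -0.43 (-0.65 to -0.21), all with intervals below 0 and none past 2-fold. The high-dose ratio of the spleen-labelled library rested on the hashtag calls: with the dominant hashtag as the group, which adds barcodes without a call, it was 0.02 in place of -0.43. At equal depth per cell the share of B cells with an Ebf1 UMI in the liver-labelled library was 74.4%, 72.1% and 77.3%, and these intervals overlapped. It was 80.6%, 71.1% and 58.3% in the spleen-labelled library, again with overlapping intervals. Pax5, the factor that Ebf1 acts with, measured 247, 179.9 and 229.9 CPM, and 158, 135 and 244. Its low-dose ratio was -0.46 (-0.63 to -0.28) in the liver-labelled library. At the high dose Pax5 gave -0.10 (-0.27 to 0.07) there and 0.63 (0.08 to 1.20) in the spleen-labelled library.

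Levels of Cd1d1 and Cd9 in B cells were low and did not order the groups. Cd1d1, which presents lipids to T cells, measured 20.8, 16.4 and 21.9 CPM in the liver-labelled library on 56, 44 and 47 UMIs. Cd9 measured 30.9, 37.2 and 27.0. The intervals of both genes held 0 at either dose. Each had 4 to 14 UMIs per group in the spleen-labelled library.

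The genes that defined the B cells also differed between groups, and their part in the results was not tested. In the spleen-labelled library the high-dose ratio was 0.52 for Cd79a, 0.26 for Cd79b and 1.07 for Ms4a1, the CD20 gene. At the low dose the same 3 genes gave -0.44, -0.63 and -0.39 there, and -0.30, -0.49 and -0.30 in the liver-labelled library. The high dose of the liver-labelled library gave -0.10, -0.19 and 0.30. The 2 neutrophil genes summed to 21051 CPM in vehicle, 18043.5 at the low dose and 4461 at the high dose in B cells of the liver-labelled library, and to 1696, 1870.0 and 1237 in those that passed no other gate. B cells that also passed the gate of another cell type numbered 6 of 37, 5 of 38 and 12 of 72 in the spleen-labelled library and 35 of 519, 31 of 465 and 22 of 405 in the liver-labelled library. Without them Cr2 gave a high-dose ratio of 2.53 and Bank1 of 0.99, so that Cr2 and Cd22 stayed past 2-fold in the spleen-labelled library. With the mean over cells of each cell's level, in which deep cells weigh no more than shallow ones, Cr2 gave 1.80, Cd22 0.79 and Bank1 0.48 in that library, and 1 of the 7 genes was called. Summed levels weigh deep cells most. The deepest B cell there held 72145 of 318594 UMIs at the low dose, 34452 of 246890 in vehicle and 31534 of 425916 at the high dose. The low-dose ratios of Fcer2a (-1.18) and Ebf1 (-0.94) include that low-dose cell and the cells that passed another gate.

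Between the libraries, vehicle B cells were compared directly. For the spleen-labelled library against the liver-labelled library, 23.6% of all genes tested were called, and 1 of the 9 genes was called. Cr2 was lower in the spleen-labelled library by 2.34 on the log2 scale (ratio -2.34, -3.30 to -1.53), at 48.6 against 247 CPM. Cd22 (-0.93), Siglecg (-0.80), Bank1 (-0.72), Pax5 (-0.64) and Ebf1 (-0.31) also had intervals below 0, and those of Fcer2a, Cd1d1 and Cd9 held 0. Ms4a1 (-0.89) and Cd79a (-0.70) were lower in the same cells. With the 3 groups pooled the Cr2 ratio was -1.02.

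Genes around the 9 were counted over fixed lists, to be read beside the 5.25% and 4.71% of all genes called at the high and low dose of the liver-labelled library and the 17.3% and 16.0% of the spleen-labelled library. Of 20 genes of B cell receptor signaling, such as Syk, Btk and Blnk, 0 were called at either dose in the liver-labelled library, with medians of -0.14 for the high dose and -0.29 for the low dose beside -0.05 and -0.07 for all genes tested. Of 19 in the spleen-labelled library, 1, the Src family kinase gene Blk, was called at the high dose and 0 of 19 at the low dose. The Blk ratio was 1.02 on 35 and 10 UMIs, and its interval (-0.02 to 2.20) held 0. Of 15 other B cell transcription factors, Lef1, a factor of early B cells, was called lower at the high dose in the liver-labelled library, and Lef1 and Spib at the low dose. Of 14 in the spleen-labelled library, Foxo1 (1.15) and Ikzf3 (1.46) were called higher and Tcf3 (-1.10) lower at the high dose. Ikzf1 (-2.19), Spib (-1.12) and Bcl11a (-1.002) were called lower at its low dose. In those B cells the 3 plasmacytoid dendritic cell genes summed to 255 CPM in vehicle and 72.2 at the low dose. In vehicle 1 barcode held 77.8% of these UMIs, and the part of such barcodes in the calls was not tested. Of 10 other surface genes of B cells, 0 were called in the liver-labelled library at either dose. In the spleen-labelled library 3 of 10 rose at the high dose, namely Fcmr, the IgM Fc receptor gene (1.04), Cxcr5, the follicle homing receptor gene (1.59), and Ly6d (2.41), and 1 of 9, Cd72, fell at the low dose.

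Genes of B cell subsets were counted in the same way. Of the 6 genes of immature and transitional B cells, 4 fell at both doses in the liver-labelled library, and the list's median was -1.75 at the high dose and -1.95 at the low dose. Vpreb3, which encodes a surrogate light chain-associated protein of B cell precursors, went from 621 CPM in vehicle to 158 at the low dose and 269.9 at the high dose. Sox4 went from 93.4 to 11.9 and 19.1, and Cd93, the AA4.1 antigen gene of transitional cells, from 26.8 to 7.06 and 4.19. Rag1, which cuts immunoglobulin genes for rearrangement, had 49 UMIs over 27 vehicle cells and 0 at either dose, so that it was at least 16.4-fold lower at the low dose and at least 13.1-fold lower at the high dose. At the high dose of the spleen-labelled library 4 of 5 fell (Vpreb3, Cd24a, Myb and Sox4, median -1.73), and at its low dose 1 of 4, Vpreb3. Of the germinal center genes, Mki67 alone had enough UMIs at the high dose of the spleen-labelled library and was called lower (-1.04, -1.72 to -0.37). S1pr2 and Gcsam of the same list were called higher at the high dose of the liver-labelled library, on 19 and 26 UMIs. Of 6 marginal zone genes other than the 9, 5 had enough UMIs, of which S1pr3, a receptor gene for sphingosine 1-phosphate, was called higher there, and Dtx1 gave 0.64 (0.34 to 0.94). S1pr3 (1.41) and Mzb1 (1.25) were called higher at its low dose. Of 4 with enough UMIs in the spleen-labelled library 0 were called at the high dose, where Plac8 gave -0.98, and Mzb1 was called lower (-1.03) at the low dose. Among 6 follicular genes 0 were called in the liver-labelled library at either dose, whereas in the spleen-labelled library Ighd (1.16) and Fcrl1 (1.59) were called higher at the high dose and Ccr7 (1.91) at the low dose. Of the plasma cell genes, Jchain measured 1084 CPM in vehicle, 4023 at the low dose and 2935 at the high dose of the liver-labelled library. It was carried by 28 and 21 barcodes at the 2 doses, of which 1 barcode held 13.3% and 28.8% of the UMIs. B cells without a Jchain UMI numbered 491 of 519 in vehicle, 437 of 465 at the low dose and 384 of 405 at the high dose. The 1028 Jchain UMIs of the high dose in the spleen-labelled library came from 1 barcode. B-1 cell genes gave 3 of 6 lower at the high dose of the liver-labelled library (Cd5, Itgam and Ahnak), of which Itgam and Ahnak are also expressed by myeloid cells.

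Ebf1 was higher in the cells that held transcripts of the immature list. After thinning, 35.7% of B cells in the liver-labelled library held a UMI of that list: 45.04% in the vehicle group, 25.4% at the low dose and 35.4% at the high dose. In the spleen-labelled library 18 of 36 vehicle cells held one, and 31.6% and 27.8% of low-dose and high-dose cells. Ebf1 measured 2308 CPM in cells with such a UMI and 1615 in cells without, a log2 difference of 0.52 (0.40 to 0.63), and 2120.0 and 1396 in the spleen-labelled library (0.60, 0.22 to 0.98). Siglecg gave 0.39 (0.13 to 0.64) and Pax5 0.36 (0.04 to 0.68) in the liver-labelled library, and Cr2 -0.44 (-0.74 to -0.15). These values pool the groups, whose immature shares differ. Within vehicle, low dose and high dose Ebf1 gave 0.81, 0.24 and 0.24, all with intervals above 0, and Siglecg gave 0.61, 0.09 and 0.04, of which the first interval alone lay above 0. The interval of Pax5 held 0 in each group, and that of Cr2 lay below 0 in vehicle alone. Fcer2a in the liver-labelled library gave -0.51 (-1.02 to -0.005) in vehicle, 0.65 (-0.04 to 1.32) at the low dose and 1.05 (0.38 to 1.73) at the high dose. Cells with an immature-list UMI thus held less Fcer2a than the others in vehicle and more at the high dose. The part of this in the Fcer2a ratios below was not tested. Siglecg (0.13) and Pax5 (-0.54) in the spleen-labelled library had intervals that held 0. Dose ratios were then taken on counts without thinning, among B cells with no UMI of the immature list in those counts. In the liver-labelled library this rule kept 111 of 519 vehicle cells, 168 of 465 (low dose) and 123 of 405 (high dose). After thinning, 277, 332 and 250 cells of these groups held no such UMI. The unthinned rule thus kept fewer cells, and a smaller part of vehicle than of either dose. Ebf1 in the kept cells gave 0.09 (-0.07 to 0.25) at the high dose and 0.24 (0.10 to 0.39) at the low dose. In all B cells Ebf1 had given -0.31 and -0.53. Siglecg at the high dose gave 0.42 (0.09 to 0.75) in place of -0.18, and Cd22 gave -0.10 (-0.49 to 0.29) in place of 0.36. Cr2 at the high dose gave 0.51 (0.20 to 0.81), and Fcer2a gave -0.96 (-1.41 to -0.51) at the high dose and -0.94 (-1.35 to -0.53) at the low dose. Among such cells of the spleen-labelled library, 12 at the low dose and 12 in vehicle, the low-dose ratio of Fcer2a was 0.80 (-1.18 to 2.85) on 6 and 5 UMIs, in place of -1.18. The choice of these cells was made after the data were seen, and it keeps cells with fewer UMIs on average. Without the cells that held a Jchain UMI, Ebf1 in the liver-labelled library gave -0.24 at the high dose and -0.45 at the low dose. The part of the immature and plasma cell transcripts in the Ebf1 difference was not tested beyond these values.

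The palindrome CCCNNGGG, bound by EBF proteins, was searched on both strands in the RefSeq promoters (250 bases before to 50 after each start, GRCm38.p6), together with the octamer ATGCAAAT of immunoglobulin promoters. Promoters were matched by symbol for 8 of the 9 genes, all but Cd1d1. The first motif was found in those of Cd22 and Bank1 and the second in none, beside 13.7% and 1.74% of 32851 promoters. These shares count promoters and not genes, and Fcer2a, Siglecg and Ebf1 had several promoters each. Both promoters with a match are shown, 5′ to 3′, with the match in capitals, and the start used for Cd22 lies inside the gene as GENCODE annotates it.
Cd22 (chr7:30878979-30879278, minus strand, match at -48 from the start): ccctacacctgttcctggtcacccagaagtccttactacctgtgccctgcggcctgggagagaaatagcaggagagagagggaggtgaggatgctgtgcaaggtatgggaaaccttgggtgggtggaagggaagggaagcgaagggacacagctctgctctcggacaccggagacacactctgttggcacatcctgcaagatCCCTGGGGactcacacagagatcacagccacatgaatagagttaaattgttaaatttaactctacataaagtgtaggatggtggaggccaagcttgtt
Bank1 (chr3:136326017-136326316, minus strand, match at -21 from the start): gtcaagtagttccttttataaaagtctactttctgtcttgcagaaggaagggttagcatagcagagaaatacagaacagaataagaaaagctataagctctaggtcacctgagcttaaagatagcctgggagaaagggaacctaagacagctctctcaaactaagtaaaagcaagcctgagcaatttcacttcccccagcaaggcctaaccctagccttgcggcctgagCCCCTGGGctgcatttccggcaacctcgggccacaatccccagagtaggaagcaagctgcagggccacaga
A match is a description of these letters and was not tested as a binding site.

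Over 36 pairs and 1336 thinned B cells of the liver-labelled library, the number of cells with both genes was set against the number that the shares within each group give for independent genes. The interval lay above 1 for 2 pairs. Cr2 and Cd22 were found together in 86 cells against 64.5 expected, a ratio of 1.33 (1.07 to 1.65), and Fcer2a and Bank1 in 130 against 99.0, a ratio of 1.31 (1.10 to 1.56). Cr2, which is high in marginal zone cells, and Fcer2a, carried by follicular cells, were together in 69 cells against 57.2 expected (1.21, 0.94 to 1.53). At 2000 UMIs per cell the interval of this pair lay above 1. By group, Cr2 with Fcer2a gave 0.92 (0.57 to 1.40) in vehicle, 1.79 (1.13 to 2.68) at the low dose and 1.17 (0.75 to 1.72) at the high dose. Other pairs of Fcer2a were also above 1 at the low dose, with Cd22 at 2.29 (1.45 to 3.43), Siglecg at 1.58 (1.02 to 2.33) and Bank1 at 1.53 (1.08 to 2.09). In vehicle these gave 0.89, 0.84 and 1.29 with intervals that held 1, and the difference between groups was not tested. Cd22 and Cd9 were together in 0 cells against 4.18 expected. Ebf1 with Cr2 gave 1.00 (0.88 to 1.13). Pearson correlations of log values across cells, which share a library and differ in makeup, reached at most 0.15 over the pooled groups, for Fcer2a and Bank1. Without thinning 14 pairs lay above 1, and deeper cells hold more of every gene.

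**Figure D4:**
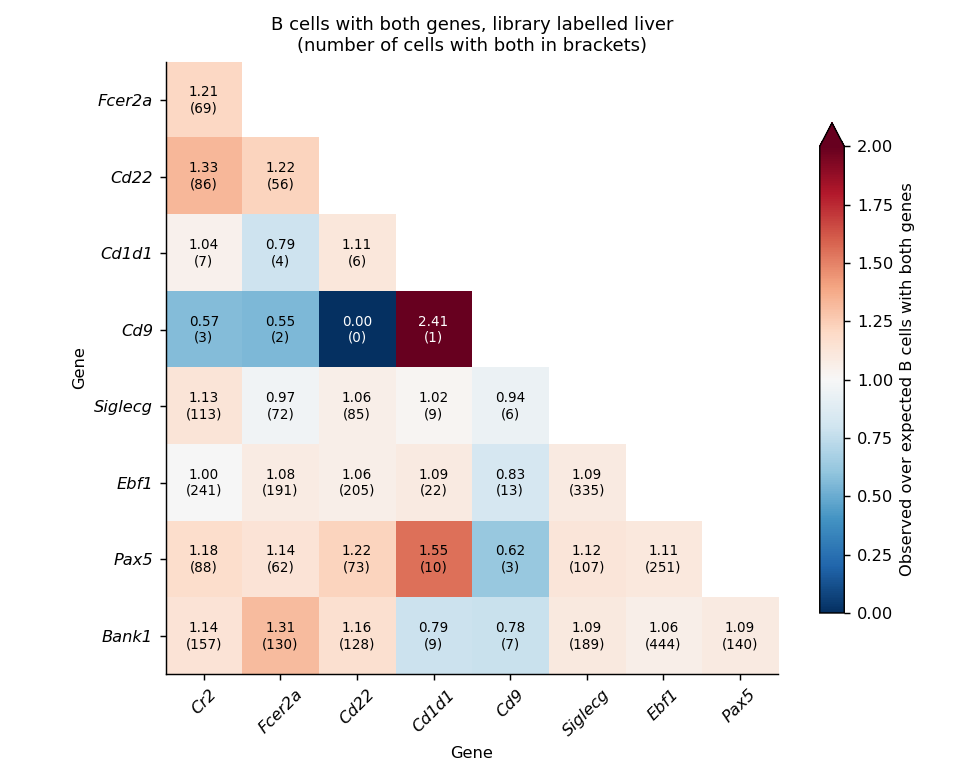
Ratio of observed to expected B cells holding both genes of a pair (color scale from 0 to 2), after thinning each cell to 1000 UMIs, in the liver-labelled library, with the number of cells in brackets. Most pairs lie near 1. Cr2 with Cd22 (1.33) and Fcer2a with Bank1 (1.31) are the pairs whose interval lies above 1, and the deep colors in the Cd9 row rest on 0 to 3 cells.

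Cells were split by the receptor pair Cr2 and Fcer2a. At 1000 UMIs per cell, 19.0% of B cells in the liver-labelled library held Cr2 alone, 12.5% Fcer2a alone, 5.16% both and 63.3% neither, and a cell without a UMI is not a cell without the receptor. Cells with Cr2 alone made up 17.7% in the vehicle group, 15.3% at the low dose and 25.1% at the high dose. The high dose lay 7.41 points above vehicle (2.0 to 12.9). Cells with Fcer2a alone were 16.7%, 8.99% and 11.1%, a difference of -7.68 points (-11.9 to -3.42) for the low dose and -5.56 (-10.0 to -0.93) for the high dose. At 500 UMIs per cell these differences were -2.17 (-5.58 to 1.27) and -2.14 (-5.62 to 1.48), and both intervals held 0. Cr2 alone marked 8.33%, 5.26% and 23.6% in the spleen-labelled library, and the interval of the high-dose difference, 15.3 points, reached from -0.572 to 27.5. Without thinning, 28.8% of B cells in the liver-labelled library held both genes, 22.5% Cr2 alone and 15.8% Fcer2a alone. The classes thus depend on depth and were not taken as cell subsets.

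**Figure D5:**
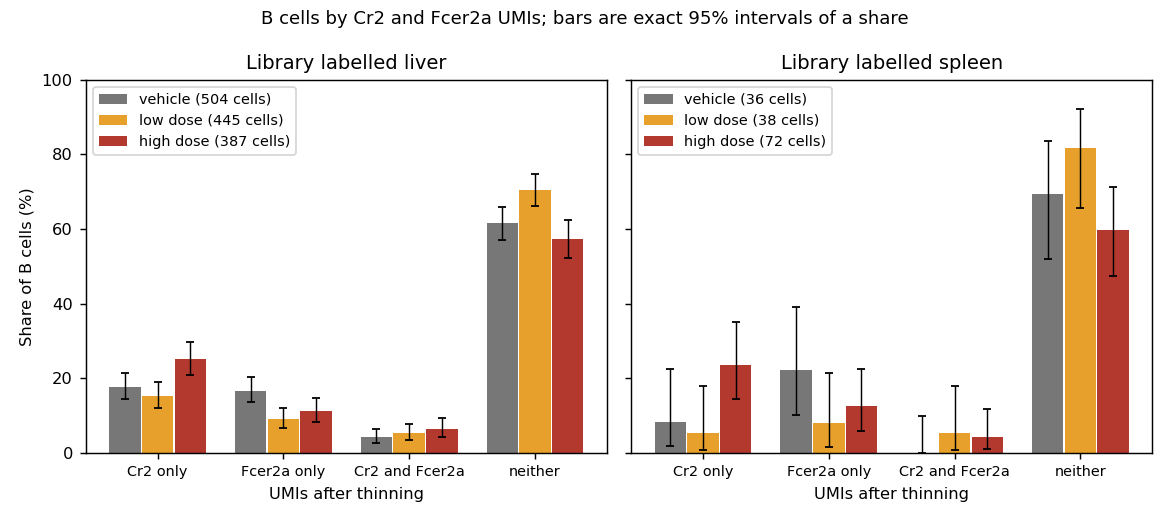
Share of B cells (vertical axis, percent) with UMIs of Cr2 alone, Fcer2a alone, both or neither after thinning to 1000 UMIs, by group and library, with exact 95% intervals. Cr2 alone was highest at the high dose, at 25.1% and 23.6%, and Fcer2a alone was highest in vehicle, at 16.7% and 22.2%.

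Transcripts that the split did not use differed between the classes of the liver-labelled library. The classes pool the 3 groups in unequal parts, and the part of dose in these differences was not tested. Cells with Cr2 alone were 89 of vehicle, 68 of the low dose and 97 of the high dose, and those with Fcer2a alone 84, 40 and 43. Dtx1, a regulator of Notch signaling listed for marginal zone cells, measured 173 CPM in cells with Cr2 alone (126 to 233), 35.9 in cells with Fcer2a alone (13.2 to 78.2) and 74.5 in cells with neither. Plac8 measured 366 and 198 in the first and second class, with intervals that did not overlap. On the follicular side Klf2 measured 772 in cells with Fcer2a alone (645 to 918) and 519.7 in cells with Cr2 alone (435 to 616). Ighd, the IgD heavy chain gene, gave 1377 and 1118, and Ccr7 119.8 and 43.3, each with overlapping intervals. Sox4 measured 95.7 in cells with neither and 15.7 in cells with Cr2 alone, and Rag1 had its 18 UMIs in cells with neither. Jchain measured 879 in cells with neither and 23.95 in cells with Fcer2a alone. Ebf1 was between 1681 and 1837 in the 4 classes, with overlapping intervals.

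The genes most alike in pattern were sought among those found in at least 5% of B cells of the liver-labelled library, by the Pearson correlation of log values over the same 1336 cells. Ebf1 was closest to Vpreb3 (0.23, and 0.41 over 146 cells of the spleen-labelled library), Malat1 and Arl5c. Siglecg also had Malat1 (0.20) and Vpreb3 (0.18) at the top, and Pax5 had Malat1 (0.15), Ebf1 and Ighd. Cr2 was closest to Ms4a1 (0.19), Rsu1 and Bcl11a. Bank1 (H2-Aa, 0.23), Fcer2a (Cd74, 0.19) and Cd22 (Cd74, 0.16) were closest to genes of antigen presentation by MHC class II. Cd9 had Retnlg (0.19), S100a6 and Lcn2 at the top, of which Retnlg and Lcn2 are neutrophil transcripts, and the 1336 cells included barcodes that passed the neutrophil gate. Cd1d1 was closest to Arl5c (0.18). All of these correlations are low, and cells of 1 library share its depth and free RNA. In the spleen-labelled library some were near 0: Siglecg with Malat1 gave 0.055, Cd22 with Cd74 0.059 and Cd9 with Retnlg -0.021. Others there were not, such as Bank1 with H2-Aa (0.26) and Cr2 with Ms4a1 (0.19).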

How the data were processed

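Single-cell RNA sequencing with hashtag antibodies was done by the authors on 2 pooled libraries, and the authors deposited raw UMI counts per gene and per hashtag. The matrix headers name Cell Ranger 5.0.0, the submitters' processing notes 6.0.0 with mm10 and Seurat, and the study's methods 8.0. No counts were normalized before deposit, and 0 columns of other samples were left unused. Barcodes were given to groups with HTODemux (Seurat 5.3.0, centered log ratio, quantile 0.99, R 4.3.3), which removes doublets between groups. Doublets within a group were not called. Cell gates, sums, thinning and figures used Python 3.11.15, numpy 2.4.6, scipy 1.17.1, pandas 2.3.3 and matplotlib 3.10.9.

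UMIs were summed over the B cells of each group and library and divided by all UMIs of those cells. Intervals were set by counting error alone (exact Poisson, binomial or conditional binomial for ratios or, for differences of shares, Newcombe's method from Wilson limits) at 95%. With 1 pooled sample per group, no count model was fitted. Depth per group is given with the results, and a count of 0 was bounded by a floor of 3 counts per group. The genes named were the 9 genes and, from fixed lists, those called or giving the closest correlations. The members and lists were chosen with earlier results of these data known. Scripts were tested on simulated data. Alternatives covered the hashtag caller, the B cell gate, the thinning depth, the minimum count and leaving out barcodes. The amounts behind the dose labels and the strand setting of the counting are not stated in the sources used. Results that need items withheld for evaluation are not reported here.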

Additional observations from a re-analysis of the deposited data

Results flagged for a closer look

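In the spleen-labelled library, 104 B cell barcodes had no hashtag call, and the high-dose hashtag had most hashtag counts in all 104. They entered no comparison. Their levels lay above those of vehicle B cells of the same library for 7 of the 9 genes. Cr2 measured 410 CPM (UMIs of the gene scaled to 1000000) against 48.6 in vehicle, and Bank1 measured 863 against 259. Cd22 gave 284 against 89.1, Fcer2a 284 against 149.9, and Siglecg 424 against 194. Ebf1 gave 1617 against 1235 and Pax5 410 against 158. The gate genes lay above vehicle too, with Cd79a at 2637 against 1239, Cd79b at 1575 against 988 and Ms4a1 at 1199 against 450. The share of all genes above vehicle in these barcodes was not computed. Per cell, Ebf1 had 4.43 UMIs against 8.24 in vehicle, Siglecg 1.16 against 1.30 and Fcer2a 0.779 against 1.0, while Cr2, Cd22, Pax5 and Bank1 were higher per cell. With the hashtag that dominates taken as the group, the high-dose B cells of that library numbered 177 in place of 72. Its high-dose ratios were then 2.74 for Cr2, 1.44 for Cd22, 1.38 for Bank1, 1.03 for Pax5, 0.52 for Fcer2a and 0.02 for Ebf1. Groups of 1 pooled sample were too small for a search for samples that stand apart.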

How the results depend on the processing

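No paired analysis was possible because each group of each library was 1 pooled sample. Of 384 recomputed log2 ratios of the 9 genes, 315 stayed within the interval of the reported value, 68 left it and 1 called ratio changed sign. Of 198 alternatives for ratios whose interval lay off 0, 8 changed sign, 6 of them among cells without an immature-list UMI before thinning. The others were Ebf1 at the high dose of the spleen-labelled library with the dominant hashtag (0.02) and Cd22 at the low dose of the liver-labelled library with the mean over cells (0.03). The called ratio, of Fcer2a at the low dose of the spleen-labelled library, went from -1.18 to 0.80. That value was taken among cells without an immature-list UMI before thinning, a choice made after seeing the data. The number of the 9 genes called changed as follows. For the high dose in the liver-labelled library it went from 0 to 1 (Cd9) with the B cell gate applied after thinning. For the low dose there it went from 0 to 1 (Cd9) with that gate and without cells passing another gate. For the high dose in the spleen-labelled library it went from 3 to 1 (Cr2) with that gate and with the mean over cells, and to 2 without cells passing another gate. For the low dose there it went from 1 to 3 with the dominant hashtag, to 2 with no minimum count, and to 0 with the gate after thinning and with the mean over cells. For vehicle between libraries it went from 1 to 2 without the top barcode, chosen after seeing the data. The cause was not tested. Pairs above 1 numbered 2 at 1000 UMIs, 9 at 2000 and 14 without thinning. The pair below 1 was lost at 500 and 2000 UMIs and without cells passing another gate, leaving 0. The low-dose difference in cells with Fcer2a alone was -2.17 points at 500 UMIs. Cr2 at the high dose ranged from 0.51 to 0.78 in the liver-labelled library and between 1.80 and 3.81 in the spleen-labelled library. Both 0.51 and 3.81 were taken among cells without an immature-list UMI before thinning. The value of 3.81 (1.23 to 9.17) rested on 30 high-dose UMIs and 1 vehicle UMI. Depth limits the spleen-labelled library, where 37 vehicle B cells held 12 Cr2 UMIs.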
